A study of Bos taurus with 8 samples.

Results

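Complement and coagulation factors are plasma proteins that the liver makes and secretes, and the 47 genes described here encode the soluble proteins of both systems. The genes were chosen by name, and a gene was measured where a probe of the array carried that name. Of the 47 genes, 41 had a probe, 1 probe each, among 15008 probes with 14952 names in all, and all 41 were among the 10985 probes tested. C1QA, C1QB and C1QC, which encode the chains of C1q, C1R and C1S, the proteases bound to it, and C2 had no probe by that name and are not analysed here.

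The samples came from Holstein bull cattle with a rumen fistula, 5 to 6 months of age, in a Latin square trial of 11 animals. Subacute ruminal acidosis (SARA), in which grain feeding lowers rumen pH and bacterial lipopolysaccharide (LPS) is released, was brought on by 2 days of a high-grain diet after 11 days on hay. Egg-yolk immunoglobulin with antibody against LPS was placed in the rumen once a day for 14 days. The 4 g group received 4 g per head per day and the 0 g group received none, with the same fistula, diets and challenge, and the 2 g dose was not analysed here. Animals 19, 20, 23 and 24 each gave 1 array per dose from a sample taken 2 days after the challenge, so 4 arrays stood in each group. The order in which an animal met the doses is not in the labels.

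Complement is a cascade of plasma proteases that marks microbes and opens pores in their membranes. It can be started by antibody through C1q or by sugar-binding lectins, and both routes, together with the alternative pathway, meet at C3. Coagulation is another cascade of proteases, many of which need vitamin K for a modification of the protein, and it ends with thrombin turning fibrinogen into fibrin. Hepatocytes are the main source of most of these proteins, while F8 is made largely by endothelial cells, F13A1 by macrophages and megakaryocytes, CFP by leukocytes and CFD chiefly by adipocytes. LPS is a known trigger of both cascades.

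Each probe is a run of 60 bases, and 8 of the 41 probes cover more than 60 bases of the genome, so that their sequence is split between separate genomic blocks. Probe sequences are shown for 4 of these, chosen because their genes carry the largest differences between arrays or stand for a pathway step described below. Capitals mark G and C, sequences and coordinates (assembly UMD 3.1) are those of the scanner files, and all 4 lie on the minus strand.
C5, 26 G or C, chr8:112240901-112245127: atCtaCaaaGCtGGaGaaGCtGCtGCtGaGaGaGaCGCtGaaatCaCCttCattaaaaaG
VTN, 33 G or C, chr19:20415713-20415849: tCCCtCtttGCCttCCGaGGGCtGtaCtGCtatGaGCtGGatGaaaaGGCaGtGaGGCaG
KNG1, 25 G or C, chr1:81109353-81112548: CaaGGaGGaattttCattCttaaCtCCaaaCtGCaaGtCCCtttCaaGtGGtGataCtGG
FGB, 27 G or C, chr17:2878192-2878461: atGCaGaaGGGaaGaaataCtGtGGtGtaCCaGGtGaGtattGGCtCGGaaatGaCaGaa

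Each level is a log2 signal from which the array's own 75th percentile was subtracted, so 0 is the brightness below which 75% of an array's probes lie. All values are of 1 probe per gene, so levels are compared between arrays and not between genes. In these bulk samples fewer cells of a type and less RNA per cell cannot be told apart. Of the 41 genes, 40 were well above background on all 8 arrays, and F13A1 on 6.

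Some arrays stood apart from the rest. Animal 19 at 4 g and animal 20 at 0 g had the dimmest arrays, with 75th percentile signals of 121.8 and 121.3, while the others lay between 210.9 and 300.3. Across all tested probes these 2 arrays correlated with each other at 0.974, whereas the 2 arrays of animal 19 correlated at 0.947. The 0 g array of animal 23 carried pancreatic acinar transcripts: 7 tested acinar markers averaged 7.81 there and between −3.25 and −1.31 on the other arrays. The labels name liver as the tissue but rumen epithelium as the source of the RNA. All 16 hepatocyte markers were well above background on every array, with mean levels of 4.52 to 4.88 at 4 g and 4.35 to 4.89 at 0 g, and 3 tested markers of rumen and squamous epithelium averaged −5.35 to −3.88 at 4 g and −5.23 to −2.23 at 0 g. Of 32 probes with 2 separate levels that did not follow the dimmest arrays, 30 put both arrays of animal 19 at the same level and 28 both arrays of animal 20, but only 15 those of animal 23 and 14 those of animal 24. In these last animals 28 put both 4 g arrays at the same level and 27 both 0 g arrays, so the arrays of animals 23 and 24 go against their animal numbers while those of 19 and 20 do not. In animals 23 and 24, a difference between doses and a difference between animals therefore cannot be told apart, and this holds for each value given for them below. The fits blocked by animal, with their SEs, intervals and p values, take the animal numbers as labelled. The SDs likewise treat the 4 arrays of a dose as 4 animals.

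The first comparison asked whether these genes differed in liver between 4 g and 0 g of antibody. None of the 41 genes passed the test: limma, blocked by animal and adjusted by Benjamini-Hochberg, gave 0 genes at an adjusted p under 0.05, the smallest adjusted p among them being 1.00. Across all tested probes 0% were called (0 of 10985, smallest adjusted p 0.588), and 1.1% of all probes but 0 of the 41 genes had an unadjusted p under 0.05. At 4 g, 21 genes had the higher mean and 20 the lower. Their median log2 difference, 4 g minus 0 g, was 0.004, against 0.018 over all tested probes. The median size of the difference, whatever its sign, was 0.0718 for the 41 genes and 0.141 for all probes, and for 24 genes it was under 0.1. Within animals 19, 20, 23 and 24 the median size for the 41 genes was 0.70, 0.59, 0.23 and 0.37. The differences of animals 19 and 20 correlated at −0.85 (−0.70 over all probes), so they partly cancel in the mean. The smaller value therefore does not show that these genes varied less than other probes. In animals 19 and 20 alone 10 genes had the higher mean at 4 g with a median difference of −0.14, and in animals 23 and 24 alone 33 with 0.19. Without the 0 g array of animal 23, and without the block, 13 genes had the higher mean at 4 g and the median was −0.03.

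The SD between the 4 arrays of a dose had a median over genes of 0.414 at 4 g and 0.428 at 0 g, against the median difference of 0.0718 in size. The largest difference, 0.69 in F11, lay between that gene's SDs of 0.56 at 4 g and 0.72 at 0 g. SDs within a dose include the spread between animals, and in the fit blocked by animal the SE of F11 was 0.31. The 95% interval of the difference reached a median of 0.709 to either side, and for 26 of the 41 genes it excluded a 2-fold change in either direction (64.3% of all probes). For the other 15 genes a 2-fold change lay inside the interval, so these data do not set a bound that tight. All these intervals take the animal numbers as labelled. No gene moved the same way in all 4 animals, where 2.92% of all probes were higher and 2.16% lower in every animal. Likewise 0 genes had all 4 g arrays above all 0 g arrays (0.31% of all probes) and 0 had them all below (0.292%). For 13 genes both dimmest arrays lay above the other 6, and for 15 below. Neither outcome was possible in these genes, since the dimmest arrays stand in opposite dose groups. Such probes made up 24.4% and 19.8% of all probes, so the shares over all probes are not a like background for these counts.

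**Figure D1:**
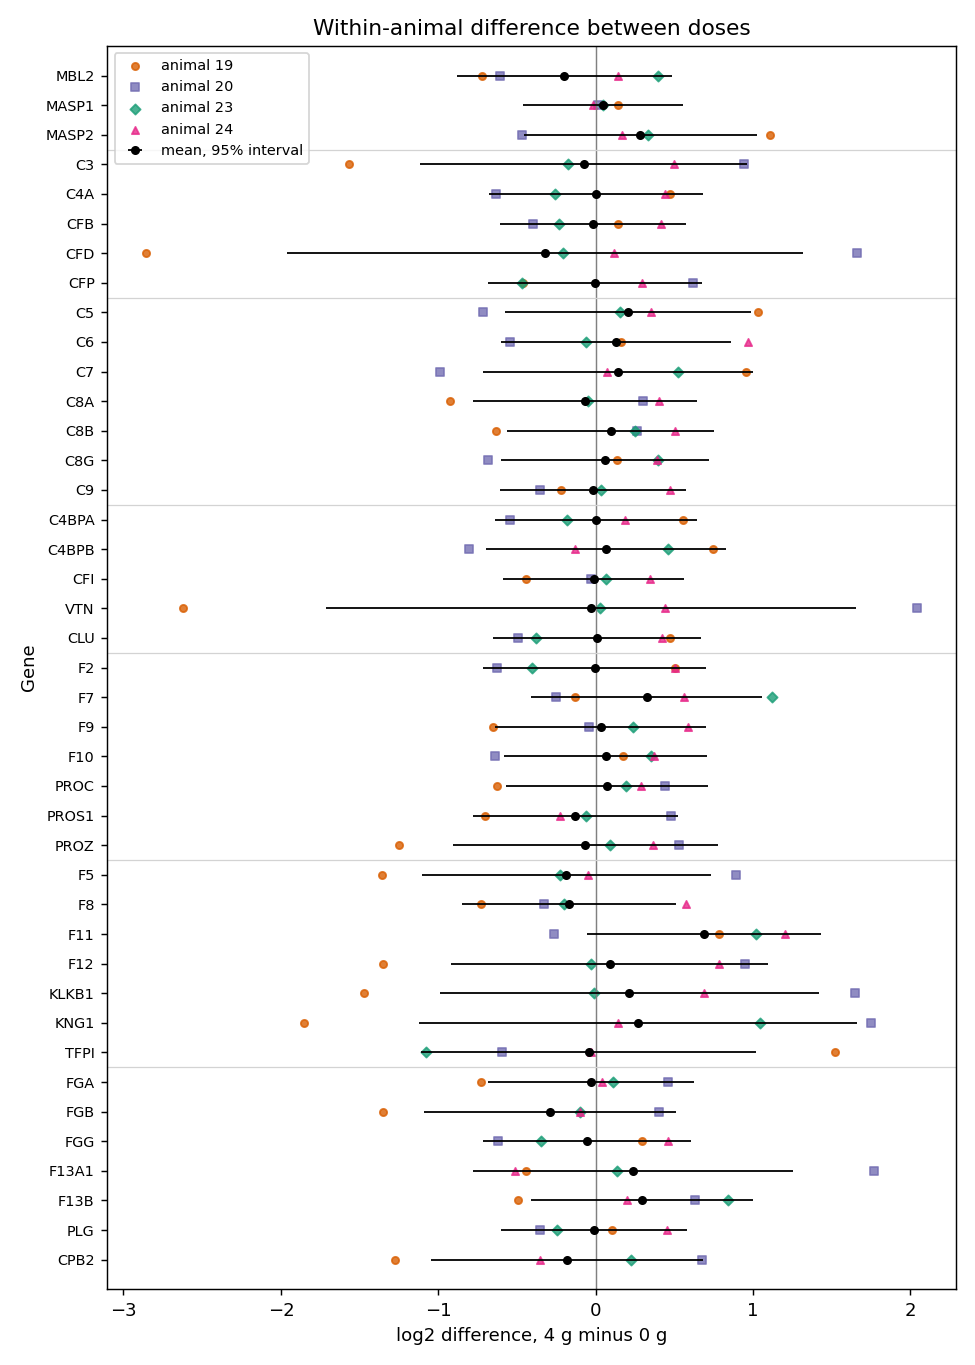
Log2 difference between 4 g and 0 g (horizontal axis) of each of 41 genes (rows, in blocks by role) in animals 19, 20, 23 and 24 (coloured marks), with the mean and its 95% interval from limma (black). All 41 intervals include 0, and the marks of animals 19 and 20 often lie on opposite sides of 0, as for VTN at −2.62 and 2.04.

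Of the lectin pathway, which starts complement from sugars on microbes, all 3 genes were measured, and their median difference was 0.05. MBL2, a mannose-binding lectin of plasma, had levels of 1.54, 2.33, 2.66 and 2.18 on the 4 g arrays of animals 19, 20, 23 and 24, against 2.26, 2.93, 2.26 and 2.03 on their 0 g arrays. MBL2 differed by −0.20 (SE 0.28, 95% CI −0.88 to 0.49), with animals 19 and 20 lower at 4 g and animals 23 and 24 higher. MASP2, the protease that cleaves C4 and C2 once a lectin has bound, stood at 2.45, 1.33, 1.76 and 1.64 at 4 g, against 1.33, 1.80, 1.43 and 1.47 at 0 g. Both dimmest arrays lay above all the others, and the 4 g array of animal 19 was the highest of the 8. The 2 doses overlapped, and the difference was 0.28 (SE 0.31) with 3 of 4 animals higher. Without animal 19 it was 0.01. MASP1, the partner protease, averaged 4.01 ± 0.21 at 4 g and 3.96 ± 0.20 at 0 g (SD, n = 4).

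Among the proteins of the C3 convertases, 1 of 5 measured genes was higher at 4 g and 4 lower, with a median difference of −0.02. C3, the protein on which all routes meet, gave 5.70, 6.94, 6.72 and 7.13 on the 4 g arrays, against 7.26, 6.00, 6.90 and 6.63 on the 0 g arrays. Its lowest values were on the 2 dimmest arrays, 1 in each dose group, and the groups overlapped throughout, with a difference of −0.08 (SE 0.43). CFD, the protease of the alternative pathway that cleaves factor B, had the widest spread of the 41 genes and was singled out after its values were seen. Its levels were −1.646, 1.361, 0.894 and 1.178 at 4 g, against 1.212, −0.303, 1.104 and 1.065 at 0 g. On the 6 brighter arrays CFD spanned 0.47, while its difference between doses was −2.86 in animal 19 and 1.66 in animal 20. Of 5 adipocyte markers 2 were tested, and they averaged −3.99 at 4 g in animal 19 and −1.85 at 0 g in animal 20, within the range of the other arrays (−4.48 to −0.84). C4A, which joins C2 in the convertase of the lectin and classical routes, averaged 7.02 ± 0.36 at 4 g and 7.02 ± 0.41 at 0 g (SD, n = 4). CFB, the factor B that carries the protease of the alternative convertase, averaged 7.25 ± 0.25 at 4 g and 7.27 ± 0.31 at 0 g. CFP, the properdin that holds that enzyme together, averaged −2.88 ± 0.35 at 4 g and −2.87 ± 0.23 at 0 g.

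The membrane attack complex is built from C5b, C6, C7, C8 and C9, and 5 of its 7 genes had the higher mean at 4 g, with a median difference of 0.10. C5, whose cleavage starts the pore, stood at 6.41, 5.29, 5.33 and 5.72 on the 4 g arrays, against 5.38, 6.01, 5.17 and 5.37 on the 0 g arrays. The highest level in each group was on a dimmest array, and the difference was 0.21 (SE 0.32), higher in 3 of 4 animals. C6, the next protein to join, had 1.503, 1.105, 0.204 and 1.381 at 4 g, against 1.341, 1.650, 0.265 and 0.415 at 0 g. C6 was low on both arrays of animal 23 and at 0 g in animal 24, and the doses differed by 0.13 (SE 0.30). The 3 chains of C8 are encoded by separate genes, C8A and C8B on chromosome 3 and C8G on chromosome 11. C8A differed by −0.07, C8B by 0.10 and C8G by 0.06, and C9, which forms the wall of the pore, by −0.02, each by less than its SE. C7 averaged 2.17 ± 0.26 at 4 g and 2.02 ± 0.86 at 0 g, the wider spread at 0 g coming with a level of 3.28 on the dimmest array of that group.

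Of the 5 complement regulators, 3 had the higher mean at 4 g, and their median difference was 0.00. VTN encodes vitronectin, which keeps the attack complex out of membranes and binds the inhibitor of plasminogen activators, and it was singled out after its values were seen. VTN had 3.01, 5.34, 4.65 and 5.32 on the 4 g arrays, against 5.63, 3.30, 4.62 and 4.88 on the 0 g arrays. Both dimmest arrays lay more than 1 log2 unit below the lowest of the other 6, so the difference between doses was −2.62 in animal 19 and 2.04 in animal 20, but 0.03 and 0.44 in animals 23 and 24. Their mean of −0.03 had an SE of 0.70 (95% CI −1.71 to 1.66), the widest interval of the 41 genes. C4BPA and C4BPB, the chains of the binding protein that breaks up the classical convertase, differed by 0.00 and 0.07, CFI, the protease that cuts C3b and C4b, by −0.01, and CLU, the chaperone clusterin, by 0.01. CFI spanned only 0.45 over the 6 brighter arrays.

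The vitamin K dependent clotting factors and anticoagulants gave 4 higher and 3 lower means at 4 g and a median difference of 0.03. F2, prothrombin, stood at 7.82, 7.17, 6.83 and 7.25 at 4 g, against 7.32, 7.80, 7.23 and 6.75 at 0 g. It averaged 7.27 ± 0.41 at 4 g and 7.27 ± 0.43 at 0 g, and its difference was −0.01 (SE 0.29). F7, which with tissue factor starts clotting, had 4.45, 4.21, 4.69 and 4.31 on the 4 g arrays, against 4.58, 4.46, 3.57 and 3.75 on the 0 g arrays. Only the 0 g arrays of animals 23 and 24 were low, so that the difference of 0.32 (SE 0.30, 95% CI −0.41 to 1.06) was −0.19 in animals 19 and 20 alone and 0.84 in animals 23 and 24 alone, and 0.15 without the 0 g array of animal 23 and without the block. Dose and animal cannot be told apart in the 0.84. PROS1, the cofactor protein S of the anticoagulant protein C, gave 3.48, 4.13, 4.57 and 4.43 at 4 g, against 4.19, 3.65, 4.64 and 4.65 at 0 g. It differed by −0.13 (SE 0.27), lower in 3 of 4 animals, and its lowest level in each group was on a dimmest array. F9, F10, PROC and PROZ differed by 0.03, 0.06, 0.07 and −0.07, each by less than its SE.

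The cofactors and the contact pathway held the gene with the largest difference. F11, which encodes factor XI, the protease that activates factor IX, stood at −2.07, −3.21, −3.29 and −2.73 on the 4 g arrays of animals 19, 20, 23 and 24, against −2.86, −2.95, −4.31 and −3.94 on their 0 g arrays. The doses overlapped, and F11 was higher at 4 g in animals 19, 23 and 24 and lower in animal 20. Its difference was 0.69 (SE 0.31, 95% CI −0.06 to 1.43, limma's adjusted p 1.00, unadjusted 0.0650). In animals 19 and 20 alone the difference was 0.26 and in animals 23 and 24 alone 1.11, a value in which dose and animal cannot be told apart. Leaving out the 0 g array of animal 23, without the block, gave 0.42, and a normexp background correction in place of the scanner's brought it to 0.14. Quantile normalization gave 0.74, array weights 0.84 and leaving out animal 20 gave 1.00. Over the 18 alternatives the difference of F11 ran from 0.14 to 1.11. F11 lay far below the 75th percentile of every array, and its probe covers chr27:15363361-15363420 (UMD 3.1). That probe carries no RefSeq transcript and was matched to F11 by gene name alone. KLKB1, which encodes prekallikrein, lies next to it at chr27:15346423-15346482 and differed by 0.21 (SE 0.50), with animal 19 lower by −1.47 and animal 20 higher by 1.65.

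F5, the cofactor of factor X in making thrombin, gave 2.54, 4.07, 3.95 and 4.40 on the 4 g arrays, against 3.90, 3.17, 4.18 and 4.45 on the 0 g arrays. F8, the cofactor that is missing in haemophilia A, had −1.20, −0.07, −0.71 and −0.14 at 4 g, against −0.47, 0.26, −0.51 and −0.72 at 0 g. F5 differed by −0.19 (SE 0.38) and F8 by −0.17 (SE 0.28), each lower in 3 of 4 animals and each with overlapping doses. Beside F8, 12 tested markers of liver endothelium, its main source, had a lower mean at 4 g in 12 of 12 genes, 0 of them past the test. Their median difference was −0.19, against 0.018 over all tested probes. It was −0.22 in animals 19 and 20 alone and −0.04 in animals 23 and 24 alone. The list means were −1.55 to −0.63 at 4 g and −0.90 to −0.71 at 0 g, and the −1.55 was the dimmest 4 g array, of animal 19. Both dimmest arrays lay below all the others for 4 of the markers and above them for 2. The part of these markers in the F8 values was not tested. KNG1, the kininogen from which bradykinin is cut, was singled out after its values were seen, at 3.66, 5.61, 5.51 and 5.21 on the 4 g arrays, against 5.52, 3.86, 4.47 and 5.07 on the 0 g arrays. Its difference of 0.27 had an SE of 0.58, with −1.86 in animal 19 and 1.75 in animal 20. F12, the contact factor XII, differed by 0.09 (SE 0.42), and TFPI, the inhibitor of the tissue factor pathway, by −0.04 (SE 0.44).

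**Figure D2:**
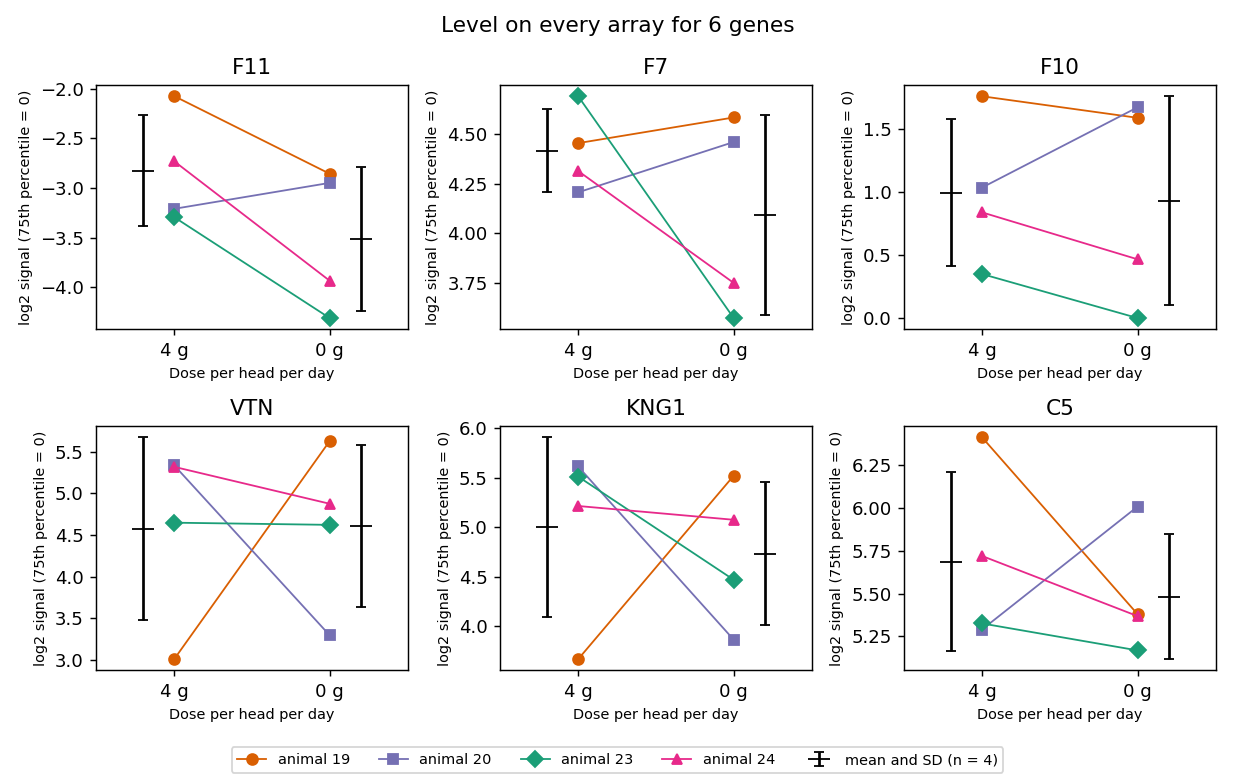
Log2 signal relative to the array's 75th percentile (vertical axis, a separate range in each panel) of F11, F7, F10, VTN, KNG1 and C5 at 4 g (left) and 0 g (right), with a line per animal and the mean and SD of 4 arrays beside each dose. The lines of animals 19 and 20 cross for VTN, KNG1 and C5, and the F10 levels of animals 23 and 24 lie below those of animals 19 and 20 at both doses.

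Fibrinogen is built from 3 chains whose genes lie together on chromosome 17. FGA, the alpha chain, stood at 6.56, 7.35, 7.28 and 7.34 on the 4 g arrays, against 7.29, 6.89, 7.17 and 7.30 on the 0 g arrays. FGB, the beta chain, had 5.92, 7.04, 6.82 and 6.95 at 4 g, against 7.27, 6.64, 6.92 and 7.05 at 0 g. FGG, the gamma chain, gave 7.53, 7.08, 6.74 and 7.05 at 4 g, against 7.24, 7.70, 7.09 and 6.59 at 0 g. On both dimmest arrays FGA and FGB were below all of the other 6 arrays and FGG was above all of them, although the 3 chains form 1 protein. The differences between doses were −0.03 (SE 0.27) for FGA, −0.29 (SE 0.33, 95% CI −1.09 to 0.51) for FGB and −0.06 (SE 0.27) for FGG. Over the 6 brighter arrays FGA spanned 0.19, FGB 0.45 and FGG 0.64.

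Of the genes that stabilise or dissolve the clot, F13B and F13A1 encode the carrier and the enzyme of factor XIII, which cross-links fibrin. F13B had 3.84, 4.25, 4.34 and 4.39 on the 4 g arrays, against 4.33, 3.62, 3.49 and 4.19 on the 0 g arrays, a difference of 0.29 (SE 0.29) with 3 of 4 animals higher. F13A1 had −4.61, −3.40, −3.40 and −4.26 at 4 g, against −4.16, −5.17, −3.54 and −3.75 at 0 g, a difference of 0.24 (SE 0.42). It was not well above background on 1 array of each dose, and 11 tested markers of Kupffer cells and macrophages, among its sources, averaged 1.38 to 1.87 at 4 g and 1.52 to 1.79 at 0 g. CPB2, a carboxypeptidase that slows fibrin breakdown, stood at 2.264, 3.103, 3.785 and 3.526 at 4 g, against 3.541, 2.428, 3.558 and 3.878 at 0 g. Its lowest level in each group was on a dimmest array, and the difference was −0.18 (SE 0.36). PLG, the precursor of plasmin, averaged 7.18 ± 0.24 at 4 g and 7.19 ± 0.33 at 0 g.

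The direction of the differences, 4 g minus 0 g, varied between the 4 pairs of arrays that share an animal number. The pairs of animals 19 and 20 each hold 1 of the dimmest arrays. The arrays of animals 23 and 24 go against their animal numbers. In animal 19 the median of the 41 differences was −0.44, with 17 genes higher and 24 lower at 4 g. Animal 20 had a median of −0.04 with 19 higher and 22 lower, and animal 23 had 0.03 with 22 higher and 19 lower. In animal 24 the median was 0.37, with 33 genes higher and 8 lower, and over all probes it was 0.09 in that animal. Beside this, the 16 hepatocyte markers averaged 4.66, 4.69, 4.52 and 4.88 on the 4 g arrays of animals 19, 20, 23 and 24. On their 0 g arrays they averaged 4.89, 4.74, 4.35 and 4.35. Of these markers 15 had the higher mean at 4 g and 1 the lower, with a median difference of 0.07, and 0 passed the test. Their part in the differences of the 41 genes was not tested. Animals 19 and 20 moved in opposite directions for 34 of the 41 genes, and across genes their differences correlated at −0.85 (41 genes, −0.70 over 10973 probes). The genes are not independent and share these arrays, and the other pairs of animals gave correlations of −0.20 to 0.10.

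**Figure D3:**
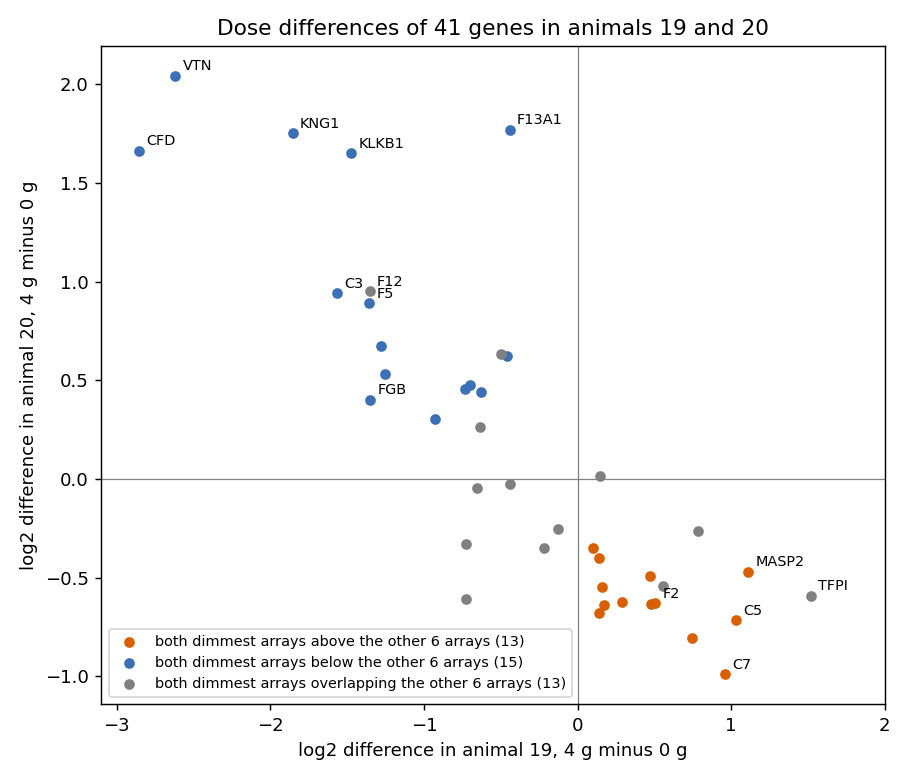
Log2 difference between 4 g and 0 g of 41 genes in animal 19 (horizontal axis) and animal 20 (vertical axis). Colours show whether both dimmest arrays lay above the other 6 arrays (13 genes), both below them (15) or neither (13). The points run from CFD and VTN at the upper left to C5 and C7 at the lower right.

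The 2 dimmest arrays stand on opposite sides of the dose comparison, and they often moved together. For 15 of the 41 genes (36.6%) both lay below the other 6 arrays, against 19.8% of all probes, and for 13 (31.7%) both lay above, against 24.4% of all probes. The lower ones were led by CFD (mean of the 2 arrays minus mean of the other 6 of −2.11), VTN (−1.92), KNG1 (−1.47), F5 (−1.30) and KLKB1 (−1.27). The higher ones were led by C7 (1.05), F10 (1.01), C8G (0.87) and C5 (0.83). By role, the convertase proteins had 2 above and 3 below, the vitamin K group 2 above and 3 below, and the fibrin group 2 above and 4 below, while the cofactor group had 0 above and 3 below and the membrane attack group 4 above and 1 below. The displacement had a correlation of −0.12 with the number of G and C in the probe and 0.08 with the mean level across the 41 genes, as a description across genes. Its median size was 0.685 in these genes and 0.497 over all probes, and what sets it was not tested.

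**Figure D4:**
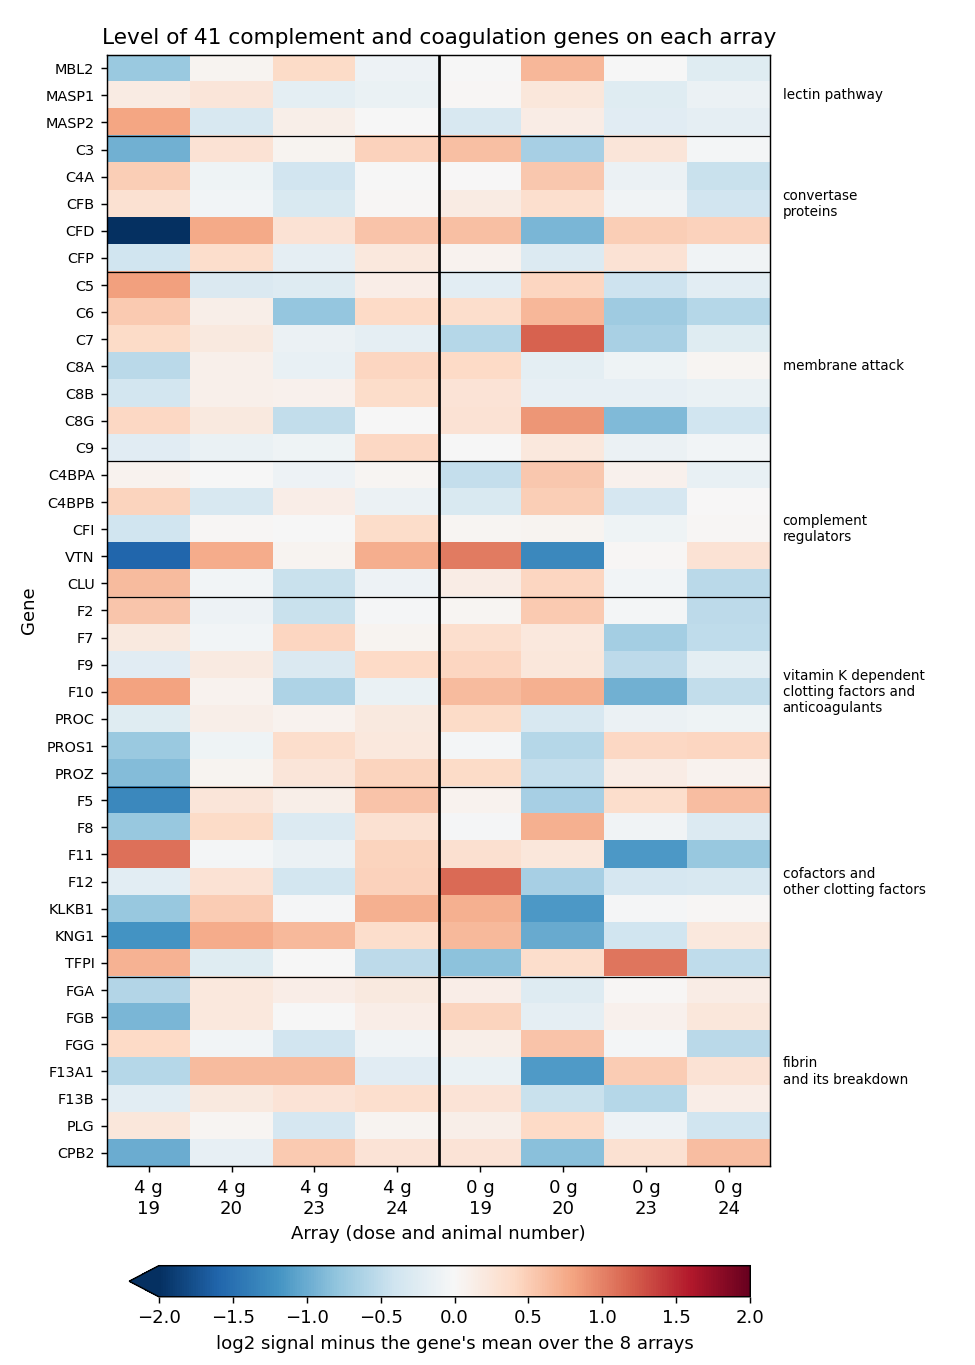
Log2 signal minus the gene's mean over the 8 arrays (colour, ending at ±2) for 41 genes (rows, in blocks by role) on the 4 g arrays (left of the line) and the 0 g arrays (right) of animals 19, 20, 23 and 24. The first column and the sixth, the dimmest arrays, share colours in most rows, as in CFD, VTN, F5 and KNG1, and FGG differs there from FGA and FGB.

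On the other 6 arrays 32 of the 41 genes spanned less than 1 log2 unit. No such count was made over all probes, so it does not set these genes apart. Without the 2 dimmest arrays, and without the block, 31 genes had the higher mean at 4 g. The median difference was 0.07, against 0.01 over all tested probes, and limma called 0 of the 41 genes and 5 probes in all. F11 then differed by 0.62, F7 by 0.44 and C7 by 0.46. Most arrays of this fit are those of animals 23 and 24, in which dose and animal cannot be told apart. They include the 0 g array with pancreatic acinar transcripts. Whether the 31 genes follow dose or animal was not tested.

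The second comparison asked whether the 4 animals differed from one another, whatever the dose. It takes the animal numbers as labelled, which the probes with 2 levels go against for animals 23 and 24. The F-test of limma on the animal terms gave 0 genes at an adjusted p under 0.05 (smallest adjusted p 0.985) and 0% of all probes (smallest 0.103). At an unadjusted p under 0.05 there was 1 gene, F10 (2.44% of the 41), against 2.74% of all probes. F10, which makes thrombin from prothrombin, stood at 1.76, 1.04, 0.35 and 0.84 on the 4 g arrays, against 1.59, 1.68, −0.003 and 0.47 on the 0 g arrays. Both arrays of animals 23 and 24 lay below all arrays of animals 19 and 20, by −1.104 between the means, and the unadjusted p of limma was 0.0234. C8G had 5.83, 5.61, 4.91 and 5.40 at 4 g, against 5.69, 6.29, 4.52 and 5.01 at 0 g, with the same split and a gap of −0.89. Its neighbours in rank were C6 (gap −0.83), F11 (−0.79), PROS1 (0.71), F8 (−0.15), CPB2 (0.85) and F5 (0.82), with unadjusted p values of limma between 0.0924 and 0.225.

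Animals 19 and 20 lay in row 1 of the slide and animals 23 and 24 in row 2, so animal and row cannot be told apart. For 3 genes (7.32%), F10, C8G and MASP1, all row 2 arrays lay below all row 1 arrays, against 6.03% of all probes, and for 1 gene (2.44%), PROS1, they lay above, against 3.58%. F7 and PROZ, on either side of F10 on chromosome 12, were not split by row, with gaps of −0.34 and 0.46.

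Beyond the 47 genes, 65 further genes of the 2 systems (receptors, membrane regulators, inhibitors, lectins, plasminogen activators) were counted as a list, of which 53 had a probe and 44 were tested. Of these, 0 passed the adjusted test or an unadjusted p under 0.05 in limma, 19 had the higher mean at 4 g and 25 the lower, and their median difference was −0.04. CL43, collectin-43, a lectin found in cattle, stood at 5.16, 4.16, 5.56 and 5.34 on the 4 g arrays, against 5.50, 3.61, 2.36 and 3.16 on the 0 g arrays. Its difference of 1.40 (SE 0.58, 95% CI −0.01 to 2.81) rested on animals 23 and 24, at 3.20 and 2.17, while animals 19 and 20 gave −0.34 and 0.56. As for F11 and F7, the larger values come from the animals in which dose and animal cannot be told apart. The probes of the collectin genes may share sequence, which was not tested. MBL1, the other mannose-binding lectin, had 2.55, 2.60, 2.61 and 2.61 at 4 g, against 2.71, 2.71, 3.07 and 3.66 at 0 g. All 4 g arrays lay below all 0 g arrays, as for 0.292% of all probes, and the difference of −0.45 (SE 0.26) did not pass the test. VWF, the endothelial carrier of factor VIII, differed by −0.34 (SE 0.23), lower in 4 of 4 animals, SERPINA10, the inhibitor that works with protein Z, by −0.41 (SE 0.27), PROCR, the receptor of protein C, by 0.26 (SE 0.29), and F3, tissue factor, by 0.19 (SE 0.25).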

How the data were processed

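RNA of 8 liver samples was labelled with Cy3 and hybridised to 1-colour Agilent arrays, 1 array per sample. The spot intensity values that the authors deposited are, per the file headers, background-subtracted processed signals of Agilent Feature Extraction 11.0.1.1, not scaled from array to array, whereas version 9.5 is named in the submitters' processing notes. The log2 values of the authors' deposited value matrix followed those processed signals at a correlation of 1.00 on every array. Their column medians of −3.04 to −2.84 fit centring near the 75th percentile, and no other step was seen.

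Each array had 15646 features, of which 536 controls were left out, and 48 outlier spots were dropped. None of the spots was saturated. Between 64.4% and 80.4% of the 15008 probes were well above background, and the number of arrays limits the precision. From log2 of the processed signal the array's 75th percentile was subtracted, and the 10985 probes that 4 or more of the 8 arrays measured well above background were tested. Genes were matched by the file's gene name; RefSeq genes (ARS-UCD2.0, names alone) matched 37 of the 41 through the accession. Coordinates are those the files give for the probes (UMD 3.1); exons and untranslated regions are not annotated there.

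Differences, 4 g minus 0 g, were estimated by lmFit and eBayes of limma 3.58.1 (R 4.3.3, data.table package 1.17.8), 2-sided, blocked by animal, with Benjamini-Hochberg adjustment across tested probes at 0.05. The F-test on the animal terms compared animals. The fit was tested on simulated data. The block rests on the Latin square and the animal numbers that the labels give; the 2 arrays of animals 19, 20, 23 and 24 deviated from their group means with correlations of −0.19, −0.18, 0.21 and 0.13. All arrays came from 1 slide. Probes with 2 levels are those with a gap over 1.5 log2 units, wider than the range on either side, and at least 2 arrays on each.

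Genes given on every array were the 6 with the smallest unadjusted p for dose in each direction, the 8 with the smallest between animals, the fibrinogen chains, C3 and F2; CFD, VTN and KNG1 were added after their values were seen. From the list of further genes the 3 of smallest p per direction were named. Members and lists were chosen with earlier results of these data known. The 18 alternatives are given in the closing section.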

Additional observations from a re-analysis of the deposited data

Results flagged for a closer look

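In each group of 4 arrays, the highest or lowest array was set against its nearest neighbour, as the gap between them divided by the group's range. Of 82 groups (41 genes at 2 doses), 4 passed the critical value, and chance alone gives about 1 in 20. CFD was lowest on the 4 g array of animal 19, at −1.65 with the next array at 0.89 (ratio 0.845), and in the other dose group on the 0 g array of animal 20, at −0.30 with the next at 1.06 (ratio 0.903). FGA was lowest on the 4 g array of animal 19, at 6.56 with the next at 7.28 (ratio 0.909). C8B was highest on the 0 g array of animal 19, at 5.54 with the next at 5.13 (ratio 0.914). The first 3 of these arrays are dimmest arrays, and the part of brightness in the values was not tested.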

How the results depend on the processing

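In none of the 18 alternatives did limma call any of the 41 genes for dose (smallest adjusted p 0.974), nor did it call one between animals where that test was run, though 1 probe in all was called there with array weights, without animal 19 and in animals 19 and 20 alone. Over all probes, 5 were called for dose, 1 of them higher at 4 g, without the 2 dimmest arrays and without the block; the cause was not tested. The number of genes with the higher mean at 4 g, 21 as reported, was 10 in animals 19 and 20 alone, 33 in animals 23 and 24 alone and 13 without the 0 g array of animal 23 (no block). Leaving out 1 animal at a time gave 11 (without animal 24) to 29 (without animal 19) higher genes. The median difference ran from −0.14 (animals 19 and 20 alone) to 0.19 (animals 23 and 24 alone). Of 737 gene values under alternatives, 148 had the other sign than reported. MASP2, F11 and F13B kept theirs in all 18, with lowest values of 0.01, 0.14 and 0.07. Normexp gave 27 genes with the higher mean and quantile normalization 29. Without the replicate block 21 genes were higher, the median difference was 0.004, and 105 in place of 121 probes had an unadjusted p under 0.05. For those probes the count was 531 with array weights, 17 with normexp and 454 in animals 23 and 24 alone. The mean over several probes of a gene was not run, since each gene had 1 probe. Probe brightness over background limits F13A1, which was not well above background on 2 arrays.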
